A study of Mus musculus with 2 samples.

Results

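The genes of the pre-T cell receptor complex and of receptor gene recombination were followed in sorted fetal thymic epithelial cells. The 10 members were taken by symbol: Cd3e, Cd3d, Cd3g, Cd247, Ptcra, Lck, Lat, Zap70, Rag1 and Rag2. All 10 were found among the 25791 genes of the deposited tables. The library titled humanCD3eTg came from mice on a C57BL/6J x CBA/J background, and the library titled B6J from C57BL/6 mice. Strain background and transgene therefore differ together between the libraries and cannot be told apart. Both held RNA of thymus cells sorted as lacking CD45 and PDGFRa and carrying EpCAM, from fetuses at 15 days post coitum. There was 1 library of each kind, so the spread between mice is unknown and no test was possible. The number of fetuses behind a library and the transgenic line are not given in the labels. Mice with many copies of human CD3E are generally known to lack T cells, but the treatment labels state the presence of thymocytes for humanCD3eTg and their absence for B6J. The libraries are therefore called by their titles, and higher or lower below refers to the library titled humanCD3eTg.

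A developing thymocyte first cuts and joins the gene segments of its T cell receptor beta chain with the RAG1 and RAG2 recombinase. The new beta chain pairs with the invariant pre-T cell receptor alpha chain, encoded by Ptcra, and with the CD3 chains. The kinase LCK then phosphorylates the tails of the CD3 and zeta chains, ZAP70 binds to them, and the adaptor LAT passes the signal on. In the thymus these genes are known as genes of the thymocytes, not of the epithelium. The sort was meant to remove CD45-bearing cells, to which thymocytes belong.

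All 10 genes were lower in humanCD3eTg than in B6J, as were 55.4% of the 13493 genes whose FPKM averaged at least 1. Summed over the members, the FPKM (fragments per length of transcript and per depth of the library, the authors' unit) came to 6.19 in humanCD3eTg and 133.4 in B6J. On the log2 ratio of FPKM + 1, 8 of the 10 members were at least 2-fold lower. Of the 13493 genes, 4.47% passed this limit in the same direction and 2.1% in the other, and with no minimum 2.81% of all 25791 genes were lower by 2-fold or more. The median log2 ratio of the 10 members was -2.77, beside -0.05 for those 13493 genes. Zap70 and Rag2 lay just short of the 2-fold limit on this scale, and their means, 0.674 and 0.485 FPKM, are below the minimum of 1. In B6J 9 members reached 1 FPKM, and in humanCD3eTg 4 did. Of the members that met the minimum, Cd3d, Cd3g, Lat and Rag1 met it only through B6J. Of the 13608 genes with at least 1 FPKM in B6J, 5.34% passed the limit. These thymocyte genes were thus lower in the library whose treatment label says that thymocytes were present. In bulk RNA, fewer cells of a type and less RNA per cell cannot be told apart.

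**Figure D1:**
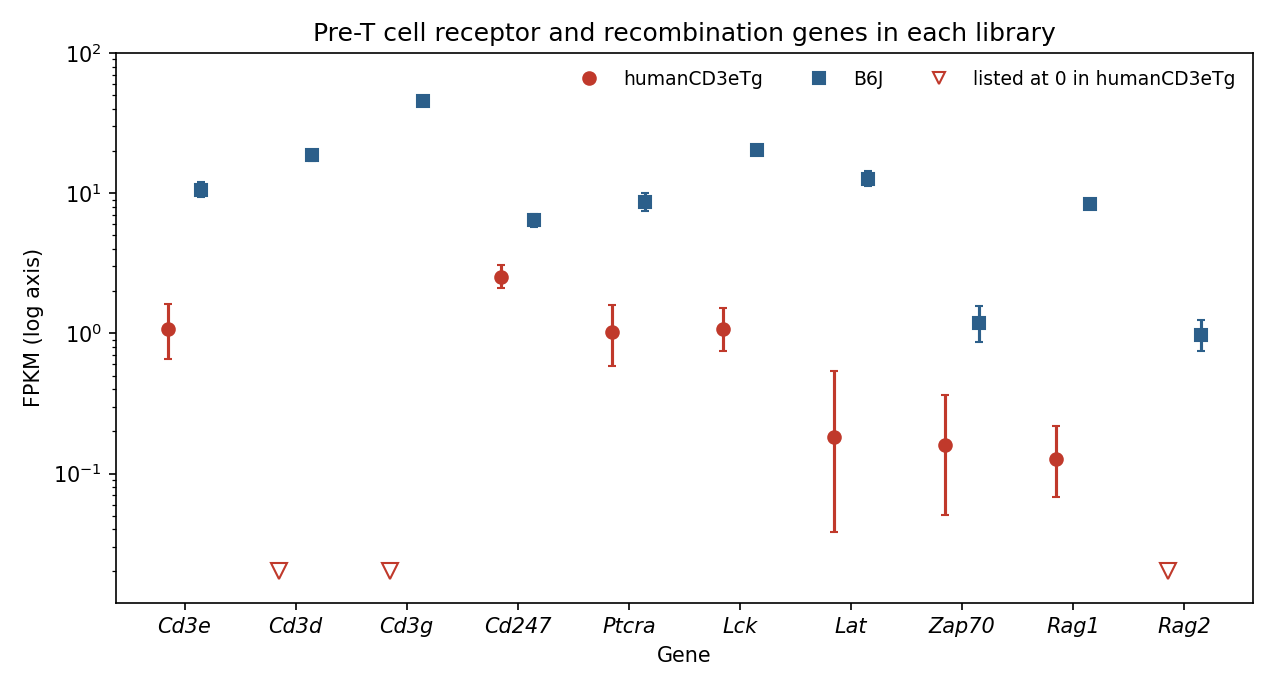
FPKM of each gene on a log axis, with humanCD3eTg as red circles left of B6J as blue squares; open triangles mark genes listed at 0 in humanCD3eTg and stand at an arbitrary low height. Bars are 95% Poisson intervals of estimated fragments and cover counting error only; for every gene the B6J point lies above the humanCD3eTg point.

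The depth behind these values was estimated, because the tables hold no counts. The step worth 1 fragment was fitted to low values, 58.7% of which in humanCD3eTg and 56.3% in B6J then lay within 0.1 of a whole fragment. It corresponds to about 15873000 fragments in humanCD3eTg and 19920000 in B6J. The intervals below come from fragments estimated this way with the longest coding transcript of GENCODE M21. They are approximate for that reason, and they cover counting error only, not the spread between mice.

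Of the CD3 chain genes, 2 were listed at 0 in humanCD3eTg. CD3 gamma, delta and epsilon form the signalling dimers that hold the receptor at the cell surface. Cd3g was listed at 0 in humanCD3eTg and at 45.5 FPKM in B6J, where it was the highest member. Cd3d was listed at 0 in humanCD3eTg and at 18.7 FPKM in B6J. A value of 0 in such a table can be a failed estimate, so no fold is given. In humanCD3eTg 3 fragments would have come to 0.232 FPKM for Cd3g and 0.134 FPKM for Cd3d, against about 737 and 523 fragments in B6J. Such pairs of values were rare: of the 6811 genes with at least 10 FPKM in B6J, 0.499% were listed at 0 in humanCD3eTg. These were 34 genes, of which 29 were small RNA genes by their symbols. The other 5 were Gzma, Cd3g, Cd3d, Ubd and Il4i1, of which Ubd and Il4i1 were named after their values were seen.

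Unlike Cd3d and Cd3g, Cd3e was above 0 in both libraries. It had 1.08 FPKM in humanCD3eTg and 10.6 FPKM in B6J, which is 10.2% of the B6J level (95% counting interval 6.08 to 15.6%). In B6J its level was the lowest of the 3 CD3 genes, with Cd3g 4.30 times and Cd3d 1.76 times as high in FPKM. The human transgene, which is a copy of the human counterpart of Cd3e, was not analysed here. Whether its reads had a part in the level of Cd3e in humanCD3eTg was not tested.

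Cd247 encodes the zeta chain, the receptor subunit with the longest signalling tail. Of the 7 members above 0 in both libraries it had the highest share of its B6J level, with 2.54 FPKM in humanCD3eTg and 6.42 FPKM in B6J. This is 39.5% of the B6J level (31.7 to 49.1%), and this interval overlaps only that of Zap70 among the members. On FPKM + 1 its log2 ratio was -1.07, and under quantile normalization it was -0.96, on the other side of the 2-fold limit. In the reference gene order Cd247 overlaps Pou2f1, a widely expressed transcription factor gene, which stood at 3.94 FPKM in humanCD3eTg and 3.73 FPKM in B6J. Whether strand was used in the counting is not given in the sources used here, so reads of the overlap could count for either gene. Their part in the level of Cd247 was not tested.

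Ptcra, the gene that defines the pre-T cell receptor, had 1.02 FPKM in humanCD3eTg and 8.60 FPKM in B6J. That is 11.9% of the B6J level (6.61 to 19.1%), an interval that overlaps that of Cd3e. In B6J, Ptcra rested on an estimated 184 fragments and Cd3e on 264, and in humanCD3eTg they rested on about 17 and 21 fragments.

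The kinases and the adaptor differed in level and in how much of it was found in humanCD3eTg. Lck, the kinase that starts receptor signalling, had 1.08 FPKM in humanCD3eTg and 20.5 FPKM in B6J, or 5.27% (3.64 to 7.46%). Zap70, the kinase that docks on the phosphorylated chains, had 0.1596 FPKM in humanCD3eTg and 1.19 FPKM in B6J, or 13.4% (4.06 to 32.7%). In B6J the FPKM of Lck was 17.2 times that of Zap70. Lat, the membrane adaptor that ZAP70 phosphorylates, had 0.184 FPKM in humanCD3eTg and 12.7 FPKM in B6J. Its 1.45% of the B6J level (0.298 to 4.30%) was the lowest share of the 7 members above 0 in both libraries, and it rests on about 3 fragments in humanCD3eTg. The intervals of Lck and Zap70 overlap, and so do those of Lck and Lat.

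The recombinase genes were also low in humanCD3eTg. Rag1 had 0.127 FPKM in humanCD3eTg and 8.35 FPKM in B6J, which is 1.52% of the B6J level (0.814 to 2.63%). Because its transcript is long, this rests on about 13 fragments in humanCD3eTg and 1064 in B6J. The interval of Rag1 lies below those of Lck, Cd3e, Ptcra, Zap70 and Cd247 and overlaps that of Lat. Rag2, its partner subunit, was listed at 0 in humanCD3eTg and at 0.971 FPKM in B6J, an estimated 62 fragments. In B6J the FPKM of Rag1 was 8.60 times that of Rag2. Rag2 overlaps B230118H07Rik (now named Iftap) in the reference gene order, which had 7.79 FPKM in humanCD3eTg and 5.47 FPKM in B6J.

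**Figure D2:**
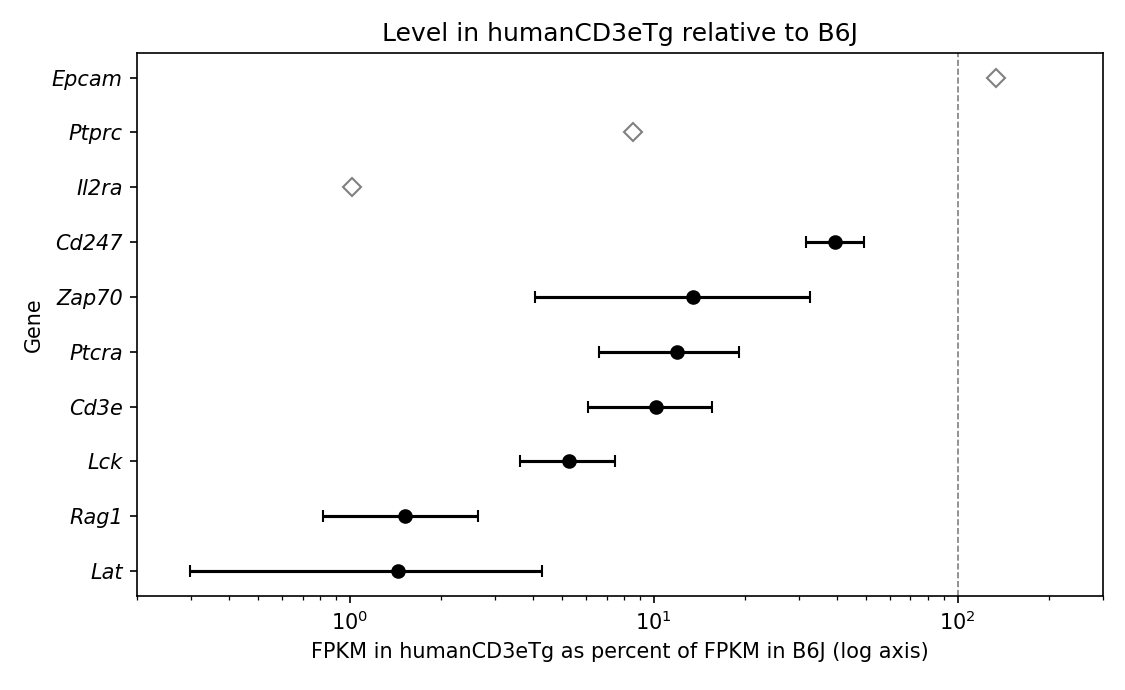
FPKM in humanCD3eTg as a percent of FPKM in B6J on a log axis, for the 7 genes above 0 in both libraries (black circles with 95% counting intervals). Open diamonds show Epcam, Ptprc and Il2ra without an interval, and the dashed line marks an equal level; the 7 genes run between 1.45% for Lat and 39.5% for Cd247.

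By the share found in humanCD3eTg, the 7 members therefore ranked as Lat, Rag1, Lck, Cd3e, Ptcra, Zap70 and Cd247, at a median of 10.2%. Of the neighbours in this order, only Rag1 and Lck had counting intervals that did not overlap. With the limit at 20% of the B6J level, 7 of the 8 members between 5 and 50 FPKM in B6J fell at or below it, the 2 listed at 0 included. Among all 7564 genes in that range of B6J, 1.53% did so. The exception was Cd247.

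Promoter windows show what sequence lies at the starts of these genes. They reach from 250 bases before to 50 bases after an annotated start and come from RefSeq on build GRCm38.p6, a later build than the mm9 of the deposited tables. All 10 members matched, with 13 windows in total. E proteins, which bind E-boxes, and RUNX factors are known regulators of early mouse thymocytes, so E-box letters (CAGCTG, or CACCTG and its reverse CAGGTG) and RUNX letters (TGTGGT or ACCACA) were searched on both strands. At least 1 of these E-boxes stood in 10 of the 13 member windows, and in 32.9% of all 32851 windows. RUNX letters stood in 4 of 13 member windows and in 16.8% of all. Of the other letters searched on both strands, AGGAAG of ETS factors stood in 9 of 13 member windows and 35.4% of all, and CTTTGA of TCF factors in 3 of 13 and 16.0% of all. AGATAA of GATA factors stood in 1 of 13 and 11.2% of all. A match describes the letters only, and some members have several windows.

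Of the windows shown, Cd3g and Cd3d are the neighbours listed at 0 in humanCD3eTg. Ptcra and Rag1 are genes whose windows hold several matches. Rag2 is the partner of Rag1 with no match to these letters, and Cd247 is the member with the highest share of its B6J level. Capitals mark E-box and RUNX letters, and no matches overlap. Cd3g (chr9:44980382-44980681, minus strand) and Cd3d (chr9:44981536-44981835, plus strand) point away from each other. Ptcra is at chr17:46763663-46763962 on the minus strand, Rag1 at chr2:101649483-101649782 on the minus strand, Rag2 at chr2:101624462-101624761 on the plus strand and Cd247 at chr1:165788431-165788730 on the plus strand.
Cd3g: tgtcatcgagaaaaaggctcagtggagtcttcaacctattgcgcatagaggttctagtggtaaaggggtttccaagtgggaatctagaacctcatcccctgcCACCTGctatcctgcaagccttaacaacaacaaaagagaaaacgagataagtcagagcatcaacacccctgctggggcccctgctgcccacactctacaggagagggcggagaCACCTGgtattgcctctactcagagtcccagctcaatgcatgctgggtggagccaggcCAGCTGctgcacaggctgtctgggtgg
Cd3d: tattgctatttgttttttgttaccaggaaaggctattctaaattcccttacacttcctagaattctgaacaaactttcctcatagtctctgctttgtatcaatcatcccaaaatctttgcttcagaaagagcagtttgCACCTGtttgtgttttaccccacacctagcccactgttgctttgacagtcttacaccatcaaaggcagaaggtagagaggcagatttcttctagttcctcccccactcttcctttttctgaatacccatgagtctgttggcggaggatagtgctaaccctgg
Ptcra: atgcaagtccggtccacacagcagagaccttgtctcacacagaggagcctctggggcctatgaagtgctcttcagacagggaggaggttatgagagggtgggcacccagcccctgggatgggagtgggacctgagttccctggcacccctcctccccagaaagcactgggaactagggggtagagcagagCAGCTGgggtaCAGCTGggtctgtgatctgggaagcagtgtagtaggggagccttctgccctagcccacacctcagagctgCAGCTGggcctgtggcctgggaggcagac
Rag1: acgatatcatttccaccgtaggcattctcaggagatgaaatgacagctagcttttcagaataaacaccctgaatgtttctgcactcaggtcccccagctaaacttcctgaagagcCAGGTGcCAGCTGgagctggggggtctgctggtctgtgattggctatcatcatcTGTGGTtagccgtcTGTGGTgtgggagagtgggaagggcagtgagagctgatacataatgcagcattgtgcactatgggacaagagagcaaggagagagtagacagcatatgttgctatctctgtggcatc
Rag2: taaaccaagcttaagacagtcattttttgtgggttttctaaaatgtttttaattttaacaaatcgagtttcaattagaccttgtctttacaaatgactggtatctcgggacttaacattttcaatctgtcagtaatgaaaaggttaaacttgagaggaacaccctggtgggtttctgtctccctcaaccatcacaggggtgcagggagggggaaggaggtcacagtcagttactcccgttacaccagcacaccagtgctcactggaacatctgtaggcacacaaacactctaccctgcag
Cd247: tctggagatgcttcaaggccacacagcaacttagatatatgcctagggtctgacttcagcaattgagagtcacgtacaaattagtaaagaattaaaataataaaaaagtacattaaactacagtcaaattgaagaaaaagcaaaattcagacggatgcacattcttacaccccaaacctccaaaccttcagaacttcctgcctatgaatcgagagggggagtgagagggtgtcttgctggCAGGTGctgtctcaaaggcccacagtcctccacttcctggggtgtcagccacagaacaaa
The Ptcra window holds CAGCTG 3 times, and the Cd3g window holds CACCTG 2 times and CAGCTG 1 time. The Rag1 window holds 1 of each E-box and 2 RUNX matches. The windows of Cd3d and Cd247 hold 1 CACCTG each. Rag2 with none, Cd3d with 1 and Cd3g with 3 were listed at 0 in humanCD3eTg, so no share of the B6J level is given for them. The shown genes with a share are Rag1 (1.52%), Ptcra (11.9%) and Cd247 (39.5%), too few to describe an order. Whether the matches bear on the levels was not tested.

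Most genes beside the members in the genome lay within 2-fold. The nearest 2 protein-coding genes on each side gave 28 genes outside the group, of which 23 averaged at least 1 FPKM. None of the 23 differed by 2-fold on FPKM + 1, and their median log2 ratio was -0.02. Beside the CD3 cluster, Ube4a had 7.73 FPKM in humanCD3eTg and 9.28 FPKM in B6J. On the other flank Mpzl2, an epithelial adhesion gene, had 19.7 FPKM in humanCD3eTg and 15.9 FPKM in B6J. Hdac1, next to Lck, had 85.4 FPKM in both libraries. Spns1, next to Lat, had 10.9 FPKM in humanCD3eTg and 11.7 FPKM in B6J, and Traf6, next to Rag1, had 8.77 FPKM in humanCD3eTg and 10.7 FPKM in B6J. The lowest of the 23 was Cnpy3, beside Ptcra, at 10.02 FPKM in humanCD3eTg and 20.4 FPKM in B6J (log2 ratio -0.96). Below that average, Fam167b, beside Lck, had 0.256 FPKM in humanCD3eTg and 1.42 FPKM in B6J (log2 ratio -0.94), a difference on this scale like that of Zap70 (-0.92).

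**Figure D3:**
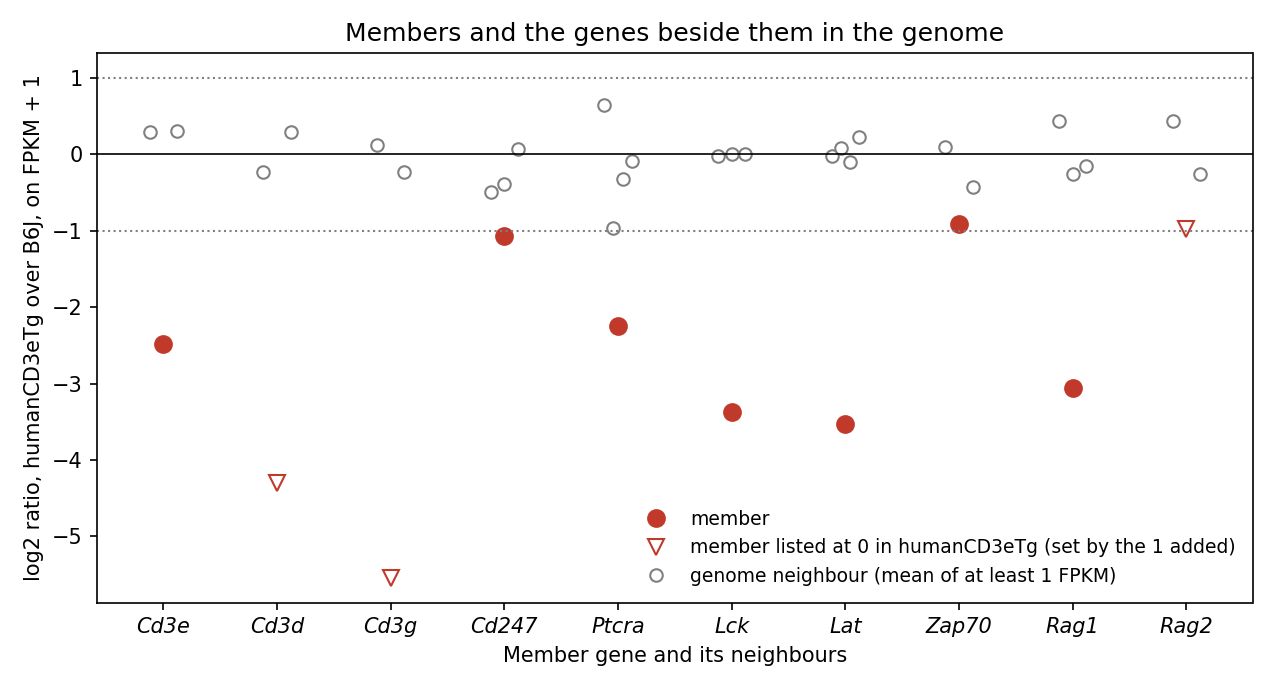
Log2 ratio of humanCD3eTg over B6J on FPKM + 1 for each member (filled red circles, or open red triangles where it is listed at 0 in humanCD3eTg) and its genome neighbours outside the group that average at least 1 FPKM (open grey circles). Dotted lines mark 2-fold; the neighbours lie between -0.96 and 0.64.

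The wider signalling machinery was split. Of 41 measured genes that act with or after the receptor, 34 averaged at least 1 FPKM, and of these 10 were at least 2-fold lower and 0 higher (median log2 ratio -0.32). The 4 of highest mean level, which many cell types use, were within 2-fold. Bcl10, an NF-kB adaptor, had 93.0 FPKM in humanCD3eTg and 79.9 FPKM in B6J. Grb2, an adaptor that binds LAT, had 26.4 FPKM in humanCD3eTg and 31.1 FPKM in B6J, and Csk, which restrains LCK, had 21.3 FPKM in humanCD3eTg and 26.9 FPKM in B6J. Fyn, the SRC family kinase that can stand in for LCK, was higher at 23.0 FPKM in humanCD3eTg and 16.3 FPKM in B6J (log2 ratio 0.48).

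A few further genes of this list were named after their values were seen. Lcp2, which encodes SLP-76, the partner of LAT, had 0.662 FPKM in humanCD3eTg and 2.62 FPKM in B6J. Themis, a thymocyte selection gene, was listed at 0 in humanCD3eTg and at 2.14 FPKM in B6J. Prkcq, a kinase after the T cell receptor, was nearly level at 15.5 FPKM in humanCD3eTg and 17.3 FPKM in B6J, and Nfatc2, a transcription factor of T cell activation, was higher at 4.28 FPKM in humanCD3eTg and 3.20 FPKM in B6J. Syk and genes of the T cell receptor loci were not analysed here.

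On FPKM + 1, the repair genes that complete recombination stayed within 2-fold, unlike Rag1. Of 20 such genes 19 averaged at least 1 FPKM, 0 of them differed by 2-fold in either direction on this scale, and their median log2 ratio was -0.10. In FPKM with nothing added, Nhej1, named after its value was seen, was past 2-fold. It had 1.15 FPKM in humanCD3eTg and 2.36 FPKM in B6J, or 48.9%. Xrcc5, which encodes the KU80 end-binding protein, had 68.5 FPKM in humanCD3eTg and 60.7 FPKM in B6J. Hmgb1 and Hmgb2, DNA-bending cofactors of the recombinase, had 239.3 and 172.9 FPKM in humanCD3eTg, against 214.0 and 161.5 FPKM in B6J. H2afx, the histone that marks breaks, had 86.0 FPKM in humanCD3eTg and 77.7 FPKM in B6J. Dntt, which adds bases at receptor gene joints, was listed at 0 in both libraries.

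Part of the other early thymocyte genes were lower too. Of 22 surface genes 12 averaged at least 1 FPKM, and of these 6 were at least 2-fold lower and 1 higher (median log2 ratio -1.13). Il2ra, the receptor chain CD25 of the stage at which the beta chain is tested, had 0.116 FPKM in humanCD3eTg and 11.4 FPKM in B6J, or 1.02%. The 4 genes of highest mean level were Cd24a, Notch1, Notch3 and Thy1, and only Thy1 was at least 2-fold lower, at 2.97 FPKM in humanCD3eTg and 23.8 FPKM in B6J. Cd24a, a surface protein that epithelial cells also carry, had 181.2 FPKM in humanCD3eTg and 128.5 FPKM in B6J. The receptors Notch1 and Notch3 had 18.7 and 17.7 FPKM in humanCD3eTg, against 17.0 and 12.8 FPKM in B6J. The list summed to 249.4 FPKM in humanCD3eTg and 245.2 FPKM in B6J, mostly through Cd24a. The higher gene, named after its value was seen, was Kit, a receptor of progenitors and also of pigment cells, at 13.3 FPKM in humanCD3eTg and 4.01 FPKM in B6J. Cd4 was listed at 0 in humanCD3eTg and at 0.0864 FPKM in B6J, and Cd8a was at 0.0218 FPKM in humanCD3eTg and listed at 0 in B6J.

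Markers of leukocytes in general moved in the same direction. All 19 measured pan-haematopoietic genes were lower, and of the 15 that averaged at least 1 FPKM 12 were at least 2-fold lower (median log2 ratio -1.99). Their summed level was 83.0 FPKM in humanCD3eTg and 240.2 FPKM in B6J, of which Arhgdib alone held 64.9 and 117.4 FPKM, and none was listed at 0. Ptprc, which encodes the CD45 of the sort, had 0.358 FPKM in humanCD3eTg and 4.18 FPKM in B6J. Its 8.58% of the B6J level lies within the range of the members, which is wide at 1.45 to 39.5%. The 13.7% of Pecam1, an endothelial gene, lies in that range too. The part of residual CD45-bearing cells in these differences was not tested.

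Receptor adaptors of other blood cells gave other values. Of 11 genes of other adaptors and receptors of this kind, 4 averaged at least 1 FPKM. On FPKM + 1, 0 of these differed by 2-fold (median log2 ratio -0.14). Fcer1g and Tyrobp, adaptors of myeloid and natural killer cells, had 3.61 and 2.59 FPKM in humanCD3eTg, against 2.42 and 1.78 FPKM in B6J. Cd79a and Cd79b, the B cell receptor adaptors, had 1.35 and 1.40 FPKM in humanCD3eTg, against 2.89 and 2.76 FPKM in B6J. In FPKM with nothing added, Cd79a was at 46.6% of its B6J level, past 2-fold, and Cd79b at 50.5%. Vpreb1 and Vpreb2, surrogate light chains of the pre-B cell receptor and therefore the B lineage counterparts of Ptcra, were listed at 0 in humanCD3eTg and at 1.33 and 1.12 FPKM in B6J. They are near-identical copies, so their separate levels are uncertain, and both were named after their values were seen.

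Of the 14 pre-B receptor and B cell genes 4 averaged at least 1 FPKM, and 1 of these was at least 2-fold lower (median -0.42). Of 16 innate lymphoid genes 5 reached this average and 2 were at least 2-fold lower (median -0.29). Gzma, a protease of cytotoxic cells, was listed at 0 in humanCD3eTg and at 56.6 FPKM in B6J, above Cd3g, and Nkg7 at 0 in humanCD3eTg and 5.17 FPKM in B6J. The other two genes of highest mean level on that list were not lower: Id2 had 58.7 FPKM in humanCD3eTg and 55.8 FPKM in B6J, and Ccl5 had 19.8 FPKM in humanCD3eTg and 13.4 FPKM in B6J. Klrd1, Prf1, Il22 and Il17a were listed at 0 in both libraries. For macrophage and dendritic cell genes the count was 2 lower and 1 higher of 5 (median -0.29), and for endothelial genes 9 lower of 10 (-1.61), with Pecam1 at 1.10 FPKM in humanCD3eTg and 8.01 FPKM in B6J and Egfl7 at 8.41 FPKM in humanCD3eTg and 8.54 FPKM in B6J. Summed levels were 18.2 FPKM in humanCD3eTg and 65.3 FPKM in B6J for the endothelial list, none of whose genes was listed at 0. They were 79.8 FPKM in humanCD3eTg and 134.2 FPKM in B6J for innate lymphoid genes, and 9.80 FPKM in humanCD3eTg and 18.4 FPKM in B6J for B cell genes. For macrophage and dendritic cell genes they were 20.6 FPKM in humanCD3eTg and 28.1 FPKM in B6J. The part of each of these cell types in the members' values was not tested.

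**Figure D4:**
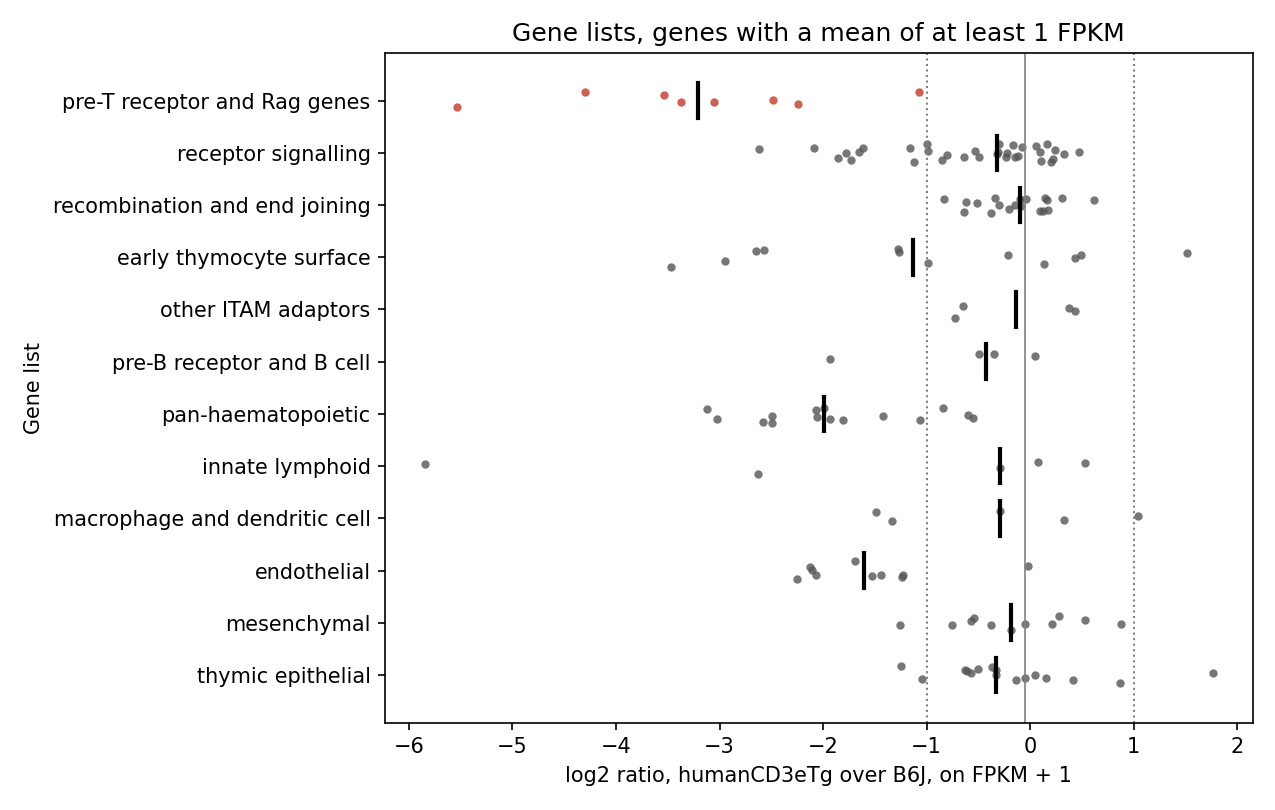
Log2 ratio of humanCD3eTg over B6J on FPKM + 1 for genes averaging at least 1 FPKM in each list; points are genes (8 of the 10 pre-T receptor and Rag genes in red), thick bars are list medians, the grey line is the median of all such genes and dotted lines mark 2-fold. Genes listed at 0 in 1 library enter through the 1 added; the red points all lie left of the lower 2-fold line, beside a median of -0.10 for recombination and end joining genes.

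Most epithelial genes lay within 2-fold. Of 16 thymic epithelial genes 2 were at least 2-fold lower and 1 higher (median log2 ratio -0.33). Epcam, the positive marker of the sort, had 231.4 FPKM in humanCD3eTg and 173.5 FPKM in B6J, and Krt8, an epithelial keratin, had 2103 FPKM in humanCD3eTg and 2183 FPKM in B6J. Prss16 and Ccl25, cortical epithelial genes, had 992.4 and 631.6 FPKM in humanCD3eTg, against 1409 and 976.9 FPKM in B6J. The 3 genes past the limit, named after their values were seen, were Foxn1, the regulator of thymic epithelial identity, and the keratin genes Krt14 and Krt5. Foxn1 had 43.7 FPKM in humanCD3eTg and 91.1 FPKM in B6J (log2 ratio -1.04), Krt14 had 9.05 FPKM in humanCD3eTg and 22.9 FPKM in B6J (-1.25), and Krt5 had 955.5 FPKM in humanCD3eTg and 280.2 FPKM in B6J (1.77). Of 11 mesenchymal genes 1 was at least 2-fold lower (-0.18), and Pdgfra, the negative marker, had 0.348 FPKM in humanCD3eTg and 0.676 FPKM in B6J.

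The genes most like the members were those whose values on log2(FPKM + 1) lay nearest to the median of the members over the 2 libraries. The 5 nearest were LOC100503883, Akr1c13, Il2ra, Madcam1 and H2-Oa, at distances of 0.09, 0.13, 0.24, 0.28 and 0.32. Il2ra was also on the list of early thymocyte surface genes. Madcam1, an adhesion molecule of vessels, had 0.363 FPKM in humanCD3eTg and 8.30 FPKM in B6J, and H2-Oa, a class II MHC chaperone chain, had 0.448 FPKM in humanCD3eTg and 10.2 FPKM in B6J. A likeness over 2 values is a description of these libraries.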

How the data were processed

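RNA of 2 libraries was measured, and each is its own group, named by its title. The authors deposited 1 table of FPKM values per library, per the file headers. Per the submitters' processing notes, the tools included TopHat2 2.0.8, Bowtie2 2.1.0 and Cufflinks 2.1.1, and the build was mm9. Which annotation and filters were used, and whether strand was, is not given in the sources used here.

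Levels were compared as log2 ratios (humanCD3eTg over B6J) of FPKM + 1, which understates differences of low genes. FPKM of at most 0.001 was called listed at 0, which held for 7772 genes in humanCD3eTg and 6435 in B6J. Genes averaging at least 1 FPKM and a limit of 2-fold gave the shares over all genes. The value of 1 fragment was searched between 0.02 and 0.15 FPKM over 1 kb, with up to 310 bases taken off the length. The best fit used 210 bases and gave 0.063 in humanCD3eTg and 0.0502 in B6J. Of 310 and 407 low genes, 58.7% and 56.3% then lay within 0.1 of a whole fragment, where 20% would by chance for a step not chosen by the fit, so fragments are approximate and no count test was run. Intervals are at 95%, exact Poisson for levels and exact binomial for shares of the B6J level.

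The members and the 12 other lists were chosen with earlier results of these data known. Named were all members, up to 4 genes of highest mean FPKM per list, a set of marker genes, the genome neighbours and the 5 most alike genes; others are said to be named after their values were seen. The scripts were tested on simulated data. Python 3.11.15, numpy 2.4.6, pandas 2.3.3 and scipy 1.17.1 were used. Alternatives were other pseudocounts, filters, fold limits and scalings.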

Additional observations from a re-analysis of the deposited data

How the results depend on the processing

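The direction of every member was the same under each of the pseudocounts of 0.1 and 5 and the 4 scalings (60 of 60 values negative). A pseudocount cannot change a direction, so only the scalings could have changed one. The largest shift of a log2 ratio under the scalings was 0.54. The count of 8 members at least 2-fold lower became 7, without Cd247, at a pseudocount of 5, under quantile normalization and at a 4-fold limit. Zap70 and Rag2, short of the 2-fold limit on FPKM + 1, passed it at a pseudocount of 0.1 and when both libraries were rescaled to the same total (Zap70 at -2.31 and -1.16; Rag2 is listed at 0 in humanCD3eTg), but they average under 1 FPKM. For members averaging at least 5 FPKM it was 5 of 5 (2.92% of all such genes), and it was 4 of 4 with at least 1 FPKM in both libraries (2.44%), where fewer genes were tested. The 5 members met the average of 5 FPKM only through B6J, with at most 1.08 FPKM in humanCD3eTg. Given those values the filter fixed the outcome, so 5 of 5 adds no separate support. The median log2 ratio of the 8 members averaging at least 1 FPKM was -3.21. A pseudocount of 0.1 gave -4.67, one of 5 gave -1.58, and rescaling both libraries to the same total FPKM gave -3.55. With no filter it was -2.77 over 10 members, and without genes listed at 0 it was also -2.77, over 6. An average of at least 5 FPKM gave -3.53, and at least 1 FPKM in both libraries gave -2.36. A filter of 1 FPKM in B6J, added after seeing the data, gave 8 of 9 members and -3.05. No paired analysis was possible because each group has 1 library. Depth limits the low values most: Lat rests on about 3 fragments and Zap70 on about 5 in humanCD3eTg.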
